A study of Mus musculus with 8 samples.

Results

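Chromosomal contacts at 8 mouse genes were followed through the first cell cycle of B cells activated with lipopolysaccharide (LPS). The genes were Tmem63a, Ephx1 and Ccdc121 on chromosome 1, Cdh23 and Slc29a3 on chromosome 10, Bank1 on chromosome 3, and Wdpcp and Otx1 on chromosome 11. They lie at 4 pairs of 50 kb bins whose contact count differed between 3 h and 10 h after activation, out of 1458577 bin pairs tested and 21938 protein-coding genes placed in bins. For each locus, the window of the genes with 1 Mb on each side was examined, and the 4 windows held 4140 of the tested bin pairs. The loci were chosen by their difference in contact count between 10 h and 3 h, so the values of that contrast are given below as a description and support nothing. The tests ask where the contacts lay at 33 h.

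The assay was in situ Hi-C. Chromatin is fixed, cut (here with MboI, which cuts at GATC), joined end to end and sequenced, so that each read pair records 2 stretches of DNA that lay close together. Naive splenic B cells of male mice aged 6 to 12 weeks were isolated by negative selection, labelled with the division dye CellTrace Violet (CTV) and cultured with 25 µg/ml LPS from Salmonella typhosa. The 8 libraries form 4 groups, each with 2 biological replicates, sorted as activated cells that had not divided (CD69+ with the highest CTV): C57BL/6 cells at 3 h, at 10 h and at 33 h (imminent division), and C57BL/6 FUCCI cells at 33 h (pre-S). The methods name the background of the mice as C57BL/6 Pep3b. FUCCI mice carry fluorescent reporters of cell cycle phase, and the pre-S gate (mAG- mKO2hi) took cells before DNA synthesis. Strain and gate of the pre-S group cannot be told apart from cell cycle phase. Hi-C holds no expression, so the cell type could not be checked against marker genes. The p-values measure the spread between these libraries. In the test of bin pairs that spread came from a trend over all bin pairs, toward which each pair's own spread was moderated.

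Chromosomes fold into domains within which contacts are frequent, and many domain borders and loops carry the DNA-binding protein CTCF together with cohesin. On a larger scale, active chromatin (compartment A) and inactive chromatin (compartment B) each contact their own kind. A contact between 2 bins can change with any of these layers, and a contact is not in itself a measure of gene activity.

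Libraries held 88703088 to 218945191 read pairs, of which 70.9% to 75.1% of the autosomal pairs joined places on the same chromosome. In the second imminent division library 3.74% of read ends lay on X and 0.0490% on Y, against 2.39% to 2.84% and 0.0804% to 0.123% in the other libraries. The methods give male mice throughout, so these shares stand at odds with that label, and the cause was not tested. The results below use autosomes only, and those that rest on the imminent division group are also given without this library where it changes them.

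The ends of the 4 pairs are 50 kb bins that begin and stop at MboI sites. The DNA at the first cut of each end is shown, in GRCm38 on the plus strand with GATC in capitals, because these cuts set where each measured end begins.
Tmem63a and Ephx1 end, chr1:180949905-180949932: cactttgagtcaGATCtgtctggttctg
Ccdc121 end, chr1:181499808-181499835: tcttgacctcaaGATCctctctcctcag
Cdh23 end, chr10:60399912-60399939: tggcatacctcgGATCtcctgggacaac
Slc29a3 end, chr10:60750529-60750556: caccattgaagcGATCctctggcctctg
Bank1 first end, chr3:135899223-135899250: tcaggtctccatGATCaagttatgaagg
Bank1 second end, chr3:136049999-136050026: cagtttgacactGATCtttaagcagaga
Wdpcp end, chr11:21699948-21699975: agataataaactGATCtataatgaaggt
Otx1 end, chr11:21950823-21950850: gaagattcacagGATCcagacaggtaca
The ends held between 104 and 126 MboI fragments, beside a median of 123 over all bins.

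Both ends of the chromosome 1 pair and the Slc29a3 end held matches to the core of the CTCF consensus, which was searched on both strands. Each is shown on its own strand with the matched core of 12 bases in capitals, since CTCF is the factor best known at domain borders.
Intron of Ephx1, chr1:180976493-180976522 (+): cctgtttcaCCACCAGGTGGCaccctttgc
Intron of Ephx1, chr1:180992301-180992330 (+): gtcattgaaCCAGCAGGGGGCagtatatgc
Between genes in the Ccdc121 end, chr1:181538631-181538660 (+): agcaaagagCCAGCAGGGGGCataggagcc
Between genes in the Slc29a3 end, chr10:60760633-60760662 (-): agaaactaaCCACTAGATGGCgcccgaaaa
Intron of Unc5b, chr10:60778719-60778748 (+): cgagagctcCCACCAGAGGGCacccgggat
Intron of Unc5b, chr10:60779222-60779251 (+): gatcaaagcCCAGCAGGTGGCaactgccaa
Intron of Unc5b, chr10:60779824-60779853 (+): ccaccgtggCCACTAGGGGGCagggcatgc
Of all kept autosomal bins, 20.5% held at least 1 match and 0.148% held at least 4, as the Slc29a3 end did. The Slc29a3 end was 52.5% G and C and the Cdh23 end 52.1%, more than 99.2% and 98.9% of bins. Matches were not compared with those of bins of like G and C content. The Cdh23 end and the ends of the Bank1 and the Wdpcp to Otx1 pairs held none. A match is a run of letters, and binding was not measured.

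The first pair joined chr1:180949917-181000035 to chr1:181499820-181549460, 550 kb apart. Its first end covers 76.9% of Tmem63a, which encodes a cation channel opened by mechanical and osmotic stress, and 53.3% of Ephx1, which encodes microsomal epoxide hydrolase. Its second end holds the whole of Ccdc121, which encodes a coiled-coil protein. The starts of Tmem63a and Ephx1 lie in the bins beside the first end. Read pairs between the ends numbered 22 and 29 in the 3 h libraries, 67 and 92 in the 10 h libraries, 51 and 70 in the imminent division libraries and 53 and 41 in the pre-S libraries.

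As CPM (counts of read pairs scaled to a common library size after the offsets), the contact frequency of the chromosome 1 pair was 0.276 and 0.187 in the 3 h libraries, 0.583 and 0.623 in the 10 h libraries, 0.242 and 0.279 in the imminent division libraries and 0.448 and 0.407 in the pre-S libraries. The 10 h libraries were the highest, the pre-S libraries lay between, and the imminent division libraries overlapped those at 3 h. The 10 h level was 2.77-fold the 3 h level (log2 change 1.47), beside 0.000617% of all tested bin pairs called in either direction (0.000548% higher, 6.86e-05% lower). Relative to 3 h, the log2 change was 0.26 ± 0.25 (SE) at imminent division and 0.97 ± 0.25 at pre-S, which is 18.0% and 66.3% of the early change on the log2 scale. These values share the libraries that chose the pair and carry no test.

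The Cdh23 to Slc29a3 pair joined chr10:60399924-60451129 to chr10:60750541-60799993, 350 kb apart. The first end lies inside Cdh23, which encodes a cadherin of the tip links of hair cells, and holds 13.0% of that gene and most of Gm17455. The second end holds the start of Slc29a3, which encodes a lysosomal nucleoside transporter, and 54.2% of Unc5b, which encodes a netrin receptor. Read pairs numbered 92 and 150 in the 3 h libraries, 213 and 214 in the 10 h libraries, 142 and 190 in the imminent division libraries and 134 and 111 in the pre-S libraries.

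The contact frequency of the Cdh23 to Slc29a3 pair was 1.07 and 0.891 CPM in the 3 h libraries, 1.76 and 1.41 in the 10 h libraries, 0.761 and 0.829 in the imminent division libraries and 1.14 and 1.12 in the pre-S libraries. Both imminent division libraries lay below the other 6. The log2 change from 3 h to 10 h, on which the pair was selected, was 0.72. Relative to 3 h, the change was -0.26 ± 0.13 (SE) at imminent division and 0.25 ± 0.14 at pre-S. These values too share the libraries that chose the pair and carry no test.

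Of the members with an end at a gene start, only Slc29a3 has a promoter sequence in the table used, and it is shown for that reason. It is taken from RefSeq (GRCm38.p6), lies at chr10:60752733-60753032 on the minus strand, and is all in lower case because it holds no GATC.
Slc29a3 promoter: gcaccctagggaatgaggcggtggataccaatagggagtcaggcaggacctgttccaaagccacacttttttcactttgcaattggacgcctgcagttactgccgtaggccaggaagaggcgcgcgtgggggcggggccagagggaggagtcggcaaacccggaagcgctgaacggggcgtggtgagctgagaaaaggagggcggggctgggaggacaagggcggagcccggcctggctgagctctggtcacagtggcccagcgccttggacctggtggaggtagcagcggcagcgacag
It holds 18 CpG dinucleotides and is 64.3% G and C. Of the 8 genes, 6 had a promoter in that table, and Ccdc121 and Otx1 are named only.

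The Bank1 pair joined chr3:135899235-135950291 to chr3:136050011-136099944, 150 kb apart. Bank1 encodes a scaffold protein of B cell receptor signalling, and the second end holds 17.1% of the gene at its 3′ side. The first end holds no protein-coding gene, and 90.0% of it is covered by the antisense gene Gm31243. Read pairs numbered 29 and 47 in the 3 h libraries, 65 and 118 in the 10 h libraries, 114 and 146 in the imminent division libraries and 80 and 62 in the pre-S libraries.

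The contact frequency of the Bank1 pair was 0.356 and 0.294 CPM in the 3 h libraries, 0.558 and 0.792 in the 10 h libraries, 0.563 and 0.601 in the imminent division libraries and 0.675 and 0.618 in the pre-S libraries. Both 3 h libraries lay below the other libraries, and the 33 h libraries lay within the range of those at 10 h. The log2 change from 3 h to 10 h, on which the pair was selected, was 1.12. Relative to 3 h it was 0.88 ± 0.19 (SE) at imminent division and 1.04 ± 0.21 at pre-S, which is 78.9% and 92.6% of the early change. Here as well, the values share the libraries that chose the pair and carry no test.

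The Wdpcp to Otx1 pair joined chr11:21699960-21750033 to chr11:21950835-22000108, 250 kb apart, and was the only one of the 4 that was lower at 10 h. Wdpcp, an effector of planar cell polarity and cilium formation, covers the whole first end. The second end holds 65.7% of Otx1, which encodes a homeobox transcription factor, though not its start. Read pairs numbered 57 and 126 in the 3 h libraries, 41 and 54 in the 10 h libraries, 140 and 158 in the imminent division libraries and 63 and 60 in the pre-S libraries.

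The contact frequency of the Wdpcp to Otx1 pair was 0.699 and 0.787 CPM in the 3 h libraries, 0.351 and 0.362 in the 10 h libraries, 0.694 and 0.653 in the imminent division libraries and 0.532 and 0.598 in the pre-S libraries. The 10 h libraries were the lowest, the pre-S libraries lay between, and the imminent division libraries lay just below those at 3 h. The log2 change from 3 h to 10 h, on which the pair was selected, was -1.08. Relative to 3 h, the change was -0.17 ± 0.15 (SE) at imminent division and -0.42 ± 0.18 at pre-S. Relative to 10 h, it was 0.91 ± 0.17 at imminent division and 0.65 ± 0.20 at pre-S. The pair was chosen for a 10 h level below that at 3 h, so a rise from 10 h is not independent of that choice. Values from either time share the libraries that chose the pair and carry no test.

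**Figure D1:**
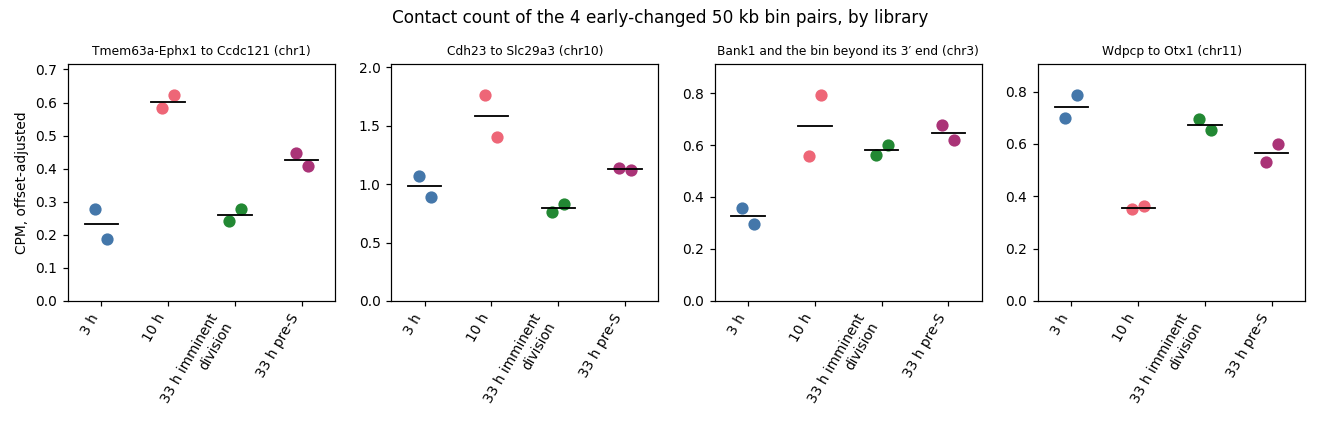
Contact frequency (CPM, read pairs after the offsets) of the 4 pairs, with 1 point per library and a line at the mean of the 2 libraries of each group. The 10 h libraries are highest at the chromosome 1 and chromosome 10 pairs and lowest at the Wdpcp to Otx1 pair, and at Bank1 the 33 h libraries lie at the 10 h level.

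The FDR values that selected the 4 pairs were 0.000435, 0.0160, 0.0160 and 0.0148 in the order above, and they restate the selection rather than test it. Among the pairs just inside the selecting FDR of 5% was a chromosome 10 pair away from the members (chr10:42949922-42999718 with chr10:43998938-44050189, log2 change 1.75, FDR 0.0479). Just outside was a pair in the Bank1 window (chr3:135850211-135899238 with chr3:136849981-136900030, log2 change 0.98, FDR 0.0564). The first end of the Bank1 pair also took part in another called pair, with chr3:136650234-136700320 (log2 change 1.42, FDR 0.0160).

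The level of contacts at 33 h was tested against the mean of 3 h and 10 h, and between the 33 h groups. The weights of the first contrast are orthogonal to those of the one that chose the pairs. Their estimates are still not independent where 3 h and 10 h differ in precision. At the chromosome 1 pair, the SE of imminent division was 0.25 against 3 h and 0.18 against 10 h. The dispersion estimates are shared with the contrast that chose the pairs. At imminent division, 1 of the 4 pairs was called, beside 4.31% of all tested bin pairs (2.01% higher, 2.3% lower). The contact between Cdh23 and Slc29a3 fell, with a log2 change of -0.62 ± 0.11 (SE; adjusted p = 2.98e-05, edgeR), and without the second imminent division library it was -0.67 (adjusted p = 0.00202). The DESeq2 Wald test gave -0.63 with an adjusted p of 0.149.

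The other pairs did not pass at imminent division, so their level was not told apart from the midpoint of 3 h and 10 h. A pair that was not called may still differ from 3 h or from 10 h. The log2 change was -0.47 ± 0.18 for the chromosome 1 pair (adjusted p = 0.121, edgeR), 0.32 ± 0.14 for Bank1 (0.187) and 0.37 ± 0.13 for Wdpcp to Otx1 (0.0873). At Bank1 the interchromosomal coverage of the ends also differed between imminent division and 10 h. It counts only the read pairs that join a bin to other autosomes, relative to the median bin. The log2 ratio was 0.31 at the first end and 0.41 at the second, against 0.02 to 0.22 at the other 6 ends. With that coverage in the offsets the Bank1 change was -0.38 (adjusted p = 0.102), and the chromosome 1 change was -0.78 (adjusted p = 0.00272).

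At pre-S none of the 4 pairs passed in edgeR, at any of the 10 alternative settings except 100 kb bins, beside 1.25% of all tested bin pairs (0.725% higher, 0.525% lower). The unadjusted p was 0.00465 for Bank1 and 0.226 or higher for the others. The log2 changes were 0.24 ± 0.20 for the chromosome 1 pair, -0.11 ± 0.12 for Cdh23 to Slc29a3, 0.48 ± 0.17 for Bank1 and 0.11 ± 0.17 for Wdpcp to Otx1. In 100 kb bins the Bank1 change was 0.52 with an adjusted p of 1.72e-07.

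Between imminent division and pre-S, the Cdh23 to Slc29a3 contact was lower at imminent division (log2 change -0.51 ± 0.13, SE; adjusted p = 0.0496, edgeR), beside 0.361% of all tested bin pairs (0.147% higher, 0.214% lower). This call was lost on leaving out either library of 3 of the 4 groups, with adjusted p from 0.0386 to 0.403 over the 8 libraries, and was 0.173 without the second imminent division library. The change was -0.71 ± 0.21 for the chromosome 1 pair (adjusted p = 0.107), with a 95% interval of -1.12 to -0.29. The interval was -0.48 to 0.17 for Bank1 and -0.07 to 0.58 for Wdpcp to Otx1.

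**Figure D2:**
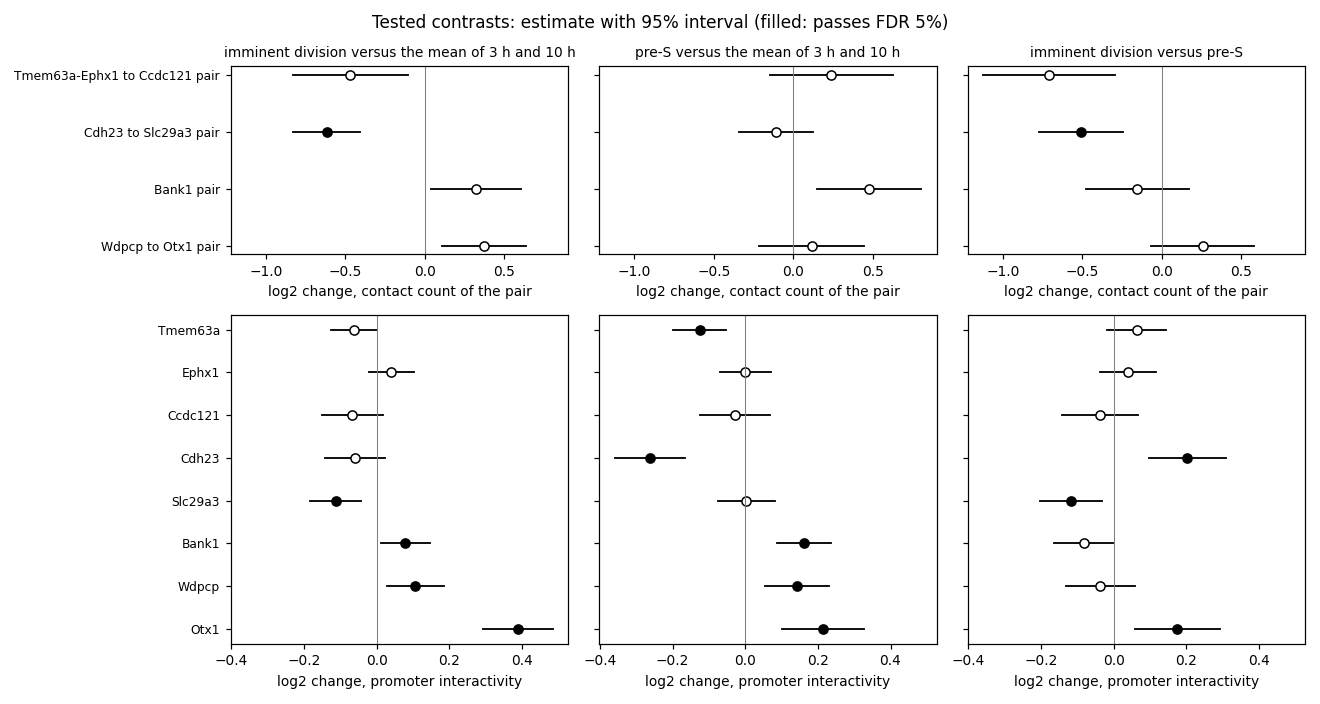
Log2 change with its 95% interval in the 3 tested contrasts, for the contact count of the 4 pairs (upper row) and the promoter interactivity of the 8 genes (lower row). Filled points pass an FDR of 5%, and among the pairs these are the Cdh23 to Slc29a3 pair at -0.62 and -0.51.

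Each named pair has 8 touching bin pairs, and all were tested. Around the chromosome 1 pair, 7 of 8 had a positive log2 change from 3 h to 10 h (median 0.66), and all 8 were above 3 h at pre-S (median 0.84), whereas 7 of 8 were below 10 h at imminent division (median -0.53). Around Cdh23 to Slc29a3 all 8 were above 0 from 3 h to 10 h (median 0.31) and all 8 were below 10 h at imminent division (median -0.35). Changes from 3 h or 10 h share the libraries that chose the pairs. Against the mean of both at imminent division, 5 were above and 3 below 0 around the chromosome 1 pair (median 0.01, 1 called). Around Cdh23 to Slc29a3 1 was above and 7 below (median -0.17, 1 called). At pre-S 0 were called around either pair (medians 0.52 and -0.13). Of all tested bin pairs, 4.31% and 1.25% were called in these groups. The medians over all tested bin pairs lay between -0.01 and 0.04 in these contrasts.

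Around Bank1, 7 of 8 touching bin pairs were above 0 from 3 h to 10 h (median 0.34). Against the mean of 3 h and 10 h, 4 of the 8 were called at imminent division and 3 at pre-S, with medians of 0.32 and 0.44, beside 4.31% and 1.25% of all tested bin pairs. Without either imminent division library or the first 10 h library 1 of the 8 was called at imminent division, and 2 when the second 3 h or second 10 h library was left out. At pre-S 0 were called on leaving out the second pre-S library. With DESeq2 0 were called in either group, and with interchromosomal coverage in the offsets 0 at pre-S. Around Wdpcp to Otx1 all 8 were below 0 from 3 h to 10 h (median -0.47), all 8 were above 10 h at imminent division (median 0.29), and 4 of 8 were above 10 h at pre-S (median 0.02). Against the mean of 3 h and 10 h, 0 of these 8 were called in either 33 h group. The medians were then 0.08 at imminent division and -0.22 at pre-S.

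Summed over the touching bin pairs, the contact frequency around Wdpcp to Otx1 was 4.55 and 4.65 CPM in the 3 h libraries, 3.36 and 3.25 in the 10 h libraries, 4.13 and 4.18 in the imminent division libraries and 3.43 and 3.53 in the pre-S libraries. Around Bank1 it was 3.94 and 3.73 in the 3 h libraries, 4.62 and 4.81 in the 10 h libraries, 5.46 and 5.41 in the imminent division libraries and 5.54 and 5.89 in the pre-S libraries. The neighbours of Bank1 at 33 h therefore lay above both earlier times, and those of Wdpcp to Otx1 at pre-S lay near the 10 h level.

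**Figure D3:**
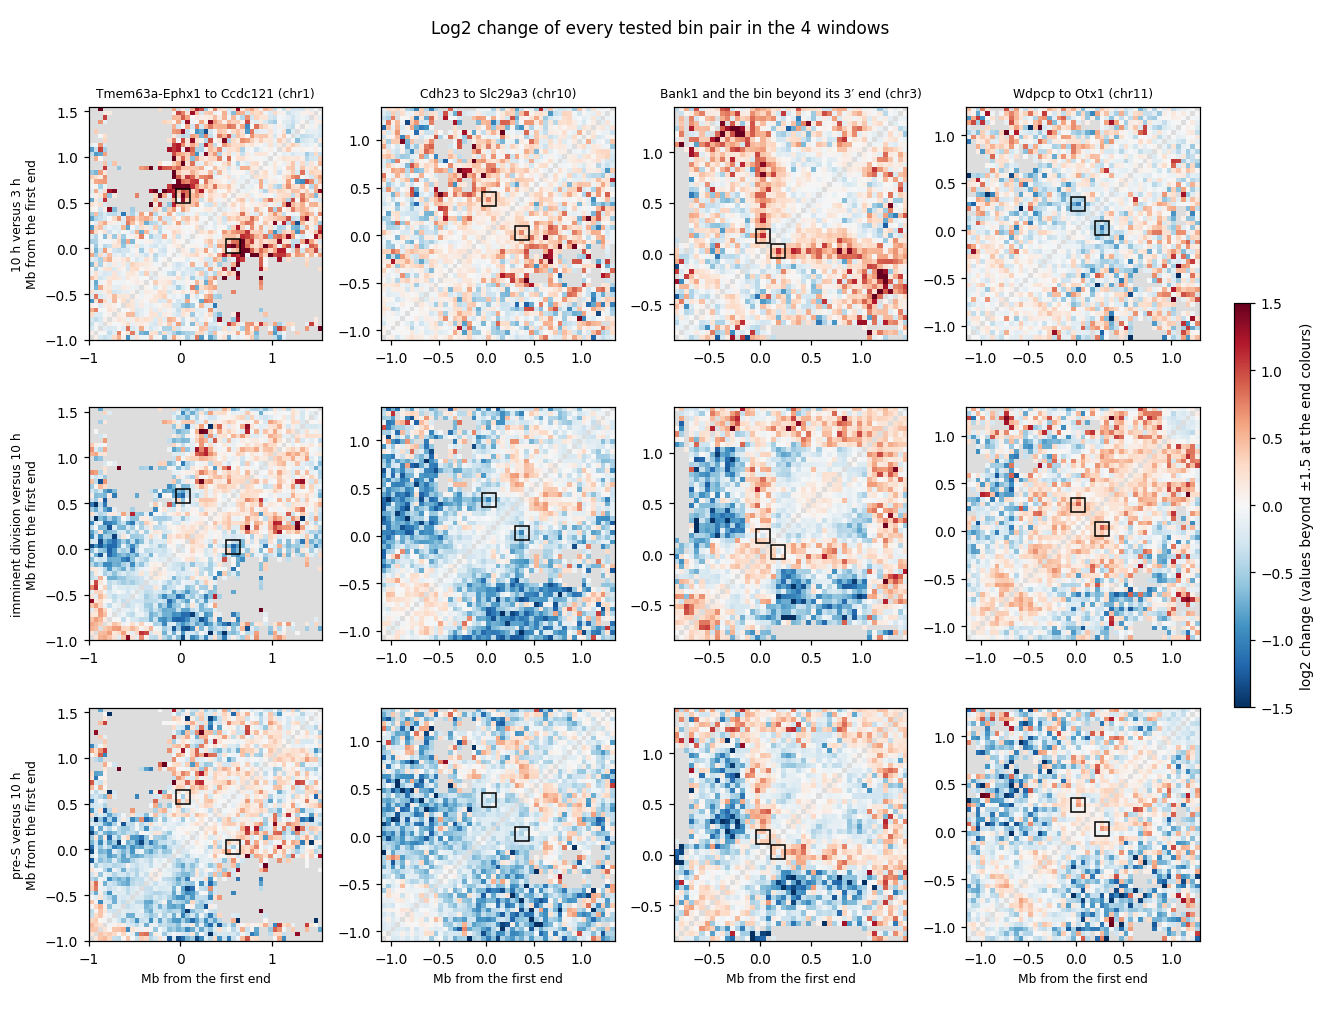
Log2 change of every tested bin pair in the 4 windows for 10 h versus 3 h and for each 33 h group versus 10 h, with both axes in Mb from the first end, grey for pairs not tested and boxes around the named pair and its 8 neighbours. At Bank1 a stripe of higher contacts runs from the first end at 10 h, and in the Cdh23 to Slc29a3 window lower contacts fill much of the map at 33 h.

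Set against the mean count of all bin pairs at the same distance, the chromosome 1 pair stood at 1.83 ± 0.49 times that mean at 3 h (SD, n = 2), 4.69 ± 0.16 at 10 h, and 1.97 ± 0.22 and 3.26 ± 0.24 in the imminent division and pre-S groups. At 10 h it was the highest of the 46 bin pairs seen from the Ccdc121 end beyond 100 kb, and it ranked 5 at 3 h and in the imminent division group, and 2 in the pre-S group. The Cdh23 to Slc29a3 pair stood at 5.15 ± 0.63, 8.0 ± 1.42, 3.30 ± 0.29 and 5.38 ± 0.14 in the same order, and ranked 2 of 44 in every group. The highest ratio from the Slc29a3 end lay 450 kb away toward lower coordinates in every group.

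The Bank1 pair itself stood at 0.712 ± 0.098 times the distance mean at 3 h and 1.49 ± 0.37 at 10 h, and ranked no higher than 24 of 41 in any group. The highest ratio from its first end lay about 1 Mb away, in the direction of Ppp3ca (a calcineurin catalytic subunit), with values of 5.58 at 3 h, 8.58 at 10 h, 8.71 for the imminent division group and 8.5 for the pre-S group. The Wdpcp to Otx1 pair stood at 2.64 ± 0.23 at 3 h, 1.26 ± 0.02 at 10 h, and 2.17 ± 0.08 and 1.97 ± 0.15 in the imminent division and pre-S groups. It ranked 3 of 44 at 3 h and 19 at 10 h.

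**Figure D4:**
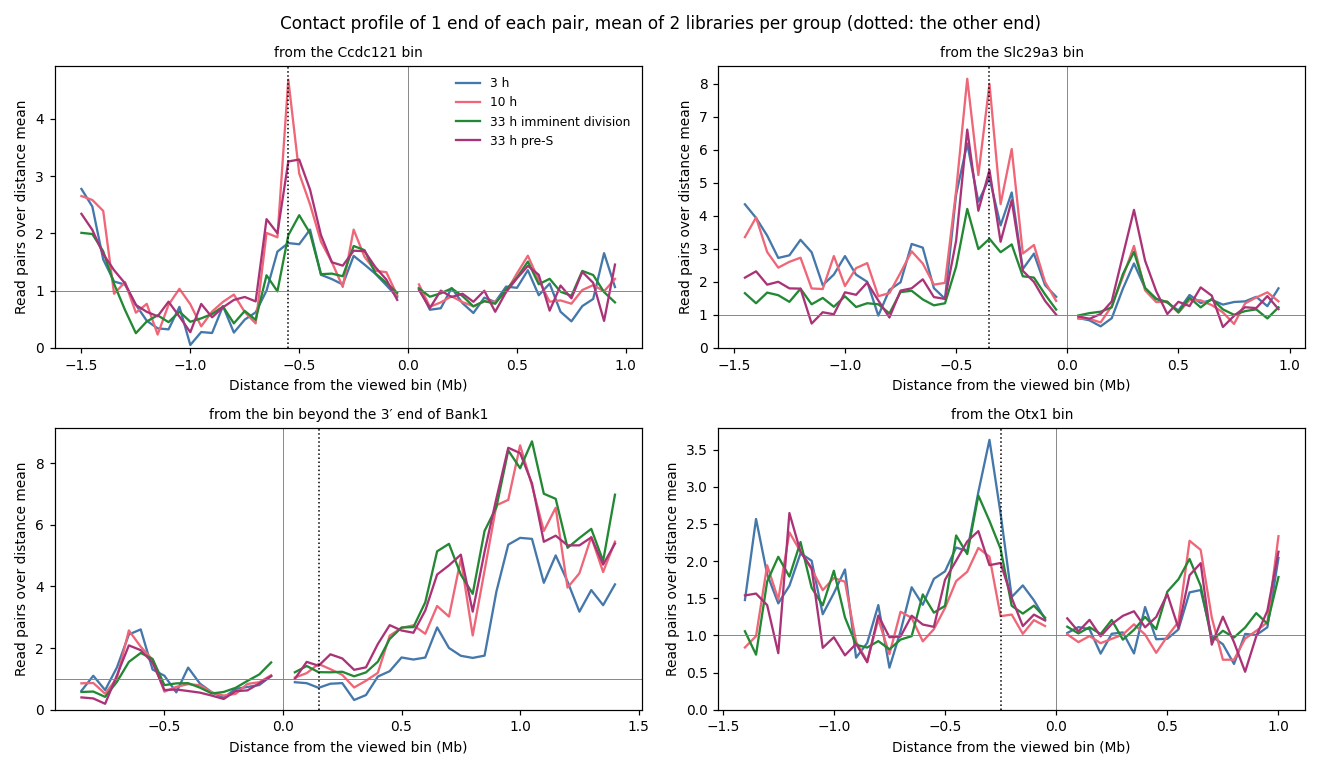
Read pairs from 1 end of each pair to every other bin of its window, divided by the mean at that distance, as the mean of 2 libraries per group, against distance in Mb (dotted line at the other end of the pair). From the Ccdc121 end the 10 h peak of 4.69 stands at the dotted line, and from the first Bank1 end the highest ratios lie about 1 Mb away.

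From the first Bank1 end, 36 of 43 tested bin pairs of the window were above 0 from 3 h to 10 h (median 0.45). Against the mean of 3 h and 10 h, 13 were called higher and 1 lower at imminent division, while pre-S had 10 higher and 0 lower, beside 4.31% and 1.25% of all tested bin pairs called. Without either pre-S library the 10 fell to 2, without the second 3 h or the second 10 h library to 6, and with interchromosomal coverage in the offsets 6 were called in each 33 h group. From the second Bank1 end 0 were called higher and 6 lower at imminent division. From the Slc29a3 end 1 was called higher and 13 lower at imminent division, and from the Cdh23 end 0 and 6. Over 10 alternative settings, the imminent division calls in either direction ran from 1 to 24 at the first Bank1 end and 0 to 32 at the second. They ran from 0 to 19 at the Slc29a3 end and 0 to 11 at the Cdh23 end. Without the second imminent division library the calls in either direction were 9 from the first Bank1 end, 2 from the second, 9 from the Slc29a3 end and 1 from the Cdh23 end. Without the first imminent division library they were 7, 2, 7 and 1 in the same order, and without the second 10 h library 8 from the first Bank1 end, 8 from the Slc29a3 end and 2 from the Cdh23 end.

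Over the 4 windows, 405 of 4140 bin pairs (9.78%) were called at imminent division against the mean of 3 h and 10 h, 163 higher and 242 lower, beside 4.31% of all tested bin pairs. In the Cdh23 to Slc29a3 window 9 were higher and 113 lower, and in the Wdpcp to Otx1 window 52 were higher and 6 lower. The chromosome 1 window held 34 higher and 75 lower, and the Bank1 window 68 higher and 48 lower. The split moved with the scaling. It was 27 higher and 806 lower with interchromosomal coverage in the offsets, and 179 higher and 132 lower with offsets fitted per distance class. The 4.31% belongs to the fit as reported, and no share over all bin pairs stands beside these splits. Over 11 alternative settings the number called ran from 3 to 833. Without the second imminent division library 167 were called, 56 higher and 111 lower.

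At pre-S, 122 bin pairs of the windows (2.95%) were called, 44 higher and 78 lower, beside 1.25% of all. Over 10 alternative settings the number called ran from 0 with DESeq2 to 224. With TMM factors in place of the loess offsets the split was 40 and 184, with DESeq2 size factors 41 and 181, and with offsets per distance class 62 and 26. Between imminent division and pre-S 15 were called (0.362%), 10 higher and 5 lower, beside 0.361% of all tested bin pairs. With interchromosomal coverage in the offsets 157 were called, 0 higher and 157 lower. The shares over all tested bin pairs given here are those of the loess fit. Counts at other settings have no such share beside them and are not read as traits of these windows.

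Bin pairs among the 3 with the smallest p in each window and contrast show where these calls lay. In the Bank1 window the first end rose in contact with chr3:136599922-136650237 at imminent division. The log2 change against the mean of 3 h and 10 h was 1.17 ± 0.17 (SE), with an adjusted p of 1.52e-07 (edgeR). The contact was 0.193 ± 0.028 CPM at 3 h (SD, n = 2), 0.299 ± 0.017 at 10 h and 0.538 ± 0.095 at imminent division. The bin of Slc39a8, a zinc transporter gene, rose in contact with chr3:136500184-136549734 (log2 change 1.28). A Bank1 bin (chr3:136099941-136149937) fell in contact with a Ppp3ca bin at imminent division (log2 change -0.85, adjusted p = 4.37e-07) and at pre-S (-0.76, adjusted p = 0.000789).

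In the chromosome 10 window, the Slc29a3 end fell in contact with a bin of P4ha1, a collagen prolyl hydroxylase subunit gene, 1400 kb away, at imminent division (log2 change -1.76 ± 0.30, SE; adjusted p = 1.74e-05), from 0.185 ± 0.004 CPM at 3 h to 0.055 ± 0.005 (SD, n = 2). At pre-S 29 of the 33 calls in this window were lower, led by the bins of Chst3 and Psap (log2 change -0.61, adjusted p = 6.15e-05), and the Slc29a3 end rose in contact with the bin of Pcbd1 and Sgpl1 (0.63, adjusted p = 0.00265). In the chromosome 1 window, the Tmem63a and Ephx1 end fell in contact with the Acbd3 bin at pre-S (-0.88 ± 0.15, adjusted p = 6.25e-05). In the chromosome 11 window, a bin of Peli1, a ubiquitin ligase gene, rose in contact with chr11:20899323-20948921 at imminent division (0.78, adjusted p = 9.45e-07) and at pre-S (0.73, adjusted p = 0.000433). Each of the pre-S calls named here lost significance in 1 of the 8 fits that left out a library, without a pre-S library, except that of Pcbd1 and Sgpl1, which lost it in 2 (adjusted p up to 0.127). Peli1 was then 0.49 (adjusted p = 0.276) and the Bank1 to Ppp3ca contact -0.52 (adjusted p = 0.359). With 100 kb bins the Chst3 to Psap change was -0.23.

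Over the 8 libraries, the bin pair of its window most like the chromosome 1 pair joined the same first end to the Enah bin (Pearson r = 0.97 across 954 candidates). For Cdh23 to Slc29a3 it joined P4ha1 to Ascc1 (r = 0.92), for Bank1 it joined a Slc39a8 bin to a bin without a protein-coding gene (r = 0.96), and for Wdpcp to Otx1 it joined Vps54 to B3gnt2 (r = 0.94). These are the highest of 954 to 1108 values each, over libraries that differ in depth, and are a description.

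Promoter interactivity, the summed contacts of the bin that holds a gene start with bins of its chromosome, was tested at all 8 gene starts. At imminent division 4 of the 8 were called, 3 higher and 1 lower, beside 58.8% of 12453 gene-start bins (29.7% higher, 29.1% lower). At pre-S 5 were called, 3 higher and 2 lower, beside 42.7% (21.9% higher, 20.8% lower). Between the 33 h groups 3 were called, 2 higher and 1 lower at imminent division, beside 20.7% (9.65% higher, 11% lower).

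Otx1 rose most of the members. Its interactivity was 5.32 and 4.93 CPM in the 3 h libraries, 5.05 and 4.48 in the 10 h libraries, 6.50 and 6.35 in the imminent division libraries and 5.60 and 5.78 in the pre-S libraries. All 33 h libraries lay above all earlier ones. The log2 change was 0.39 ± 0.05 at imminent division (SE; adjusted p = 3.32e-09, edgeR), 0.21 ± 0.06 at pre-S (adjusted p = 0.00203) and 0.18 ± 0.06 between them (adjusted p = 0.0250). The last call was lost in 4 of the 8 fits that left out a library (adjusted p up to 0.193) and in 3 of 5 other settings (up to 0.938). Promoter interactivity keeps only contacts above a distance curve. When all contacts of the bin with its chromosome were summed instead, the log2 change of Otx1 was 0.14 at imminent division, 0.13 at pre-S and 0.0041 between them.

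Wdpcp and Bank1 were called higher in both 33 h groups by less, and these calls depended on single libraries. The log2 change of Wdpcp was 0.11 ± 0.04 at imminent division (SE; adjusted p = 0.0160) and 0.14 ± 0.04 at pre-S (0.00713). That of Bank1 was 0.08 ± 0.03 (0.0430, and 0.157 without the second imminent division library) and 0.16 ± 0.04 (0.000501). At imminent division the Bank1 call was lost in 5 of the 8 fits that left out a library and in 3 of 5 other settings. Wdpcp lost its call in 1 of 5 other settings, and its log2 change fell to 0.047 without the first imminent division library. At pre-S both calls were lost without the first pre-S library (adjusted p = 0.183 for Bank1 and 0.116 for Wdpcp), Bank1 also with TMM factors and Wdpcp in 2 of 5 other settings. Bank1 was 19.9 and 21.8 CPM in the 3 h libraries, 21.2 and 21.1 in the 10 h libraries, 22.1 and 22.3 in the imminent division libraries and 24.7 and 22.4 in the pre-S libraries.

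On chromosome 10, Slc29a3 fell at imminent division (log2 change -0.11 ± 0.03, SE; adjusted p = 0.00480) and was 0.00 ± 0.04 at pre-S (adjusted p = 0.952), with a difference between the 33 h groups of -0.12 ± 0.04 (adjusted p = 0.0438). Cdh23 fell at pre-S (-0.26 ± 0.05, adjusted p = 2.89e-05) and was -0.06 ± 0.04 at imminent division (adjusted p = 0.207), with a difference of 0.20 ± 0.05 (adjusted p = 0.00442). The Slc29a3 difference lost its call in 4 of 5 other settings (adjusted p up to 0.288) and 5 of 8 fits that left out a library (up to 0.307). The Cdh23 difference lost its call in 2 of 5 other settings (up to 0.358) and without the second imminent division library (0.106). The Slc29a3 fall at imminent division was lost without the first imminent division library (0.146). On chromosome 1, Tmem63a fell at pre-S (-0.13 ± 0.04, adjusted p = 0.00483, and 0.0855 without the first pre-S library). Ephx1 and Ccdc121 passed in no contrast, with log2 changes between -0.07 and 0.04. With all contacts of the bin summed, Cdh23 (-0.16, adjusted p = 0.00230) and Tmem63a (-0.09, adjusted p = 0.00643) were called lower at imminent division as well. Ccdc121 was then called lower at imminent division (-0.18, adjusted p = 0.000663) and pre-S (-0.14, adjusted p = 0.00429) and Ephx1 at pre-S (-0.07, adjusted p = 0.0422). Slc29a3 was then called lower at pre-S too (-0.11). With TMM factors Ephx1 (0.10, adjusted p = 0.0461) and Tmem63a (0.11, adjusted p = 0.0388) were called higher at imminent division than at pre-S.

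The other gene starts of the windows were taken by position. With the members they number 89 genes in 73 bins, and the counts below stand beside 58.8% of all gene-start bins called at imminent division and 42.7% at pre-S. In the Bank1 window 7 of 9 gene-start bins were called at imminent division and 9 of 9 at pre-S, all higher, but without the first imminent division library 1 was called at imminent division. In the Wdpcp to Otx1 window 9 were higher and 1 lower of 11 at imminent division, while pre-S had 7 higher and 0 lower. In the Cdh23 to Slc29a3 window 3 were higher and 13 lower of 27 at imminent division, while pre-S had 2 and 12. In the chromosome 1 window 5 were higher and 6 lower of 26 at imminent division, while pre-S had 2 and 12. Without the first pre-S library the 14 pre-S calls fell to 6 in the chromosome 1 window and to 7 in the Cdh23 to Slc29a3 window.

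Among these, Slc39a8 rose from 11.6 ± 0.2 CPM at 3 h (SD, n = 2) to 15.32 ± 0.28 at imminent division and 15.95 ± 0.18 at pre-S (log2 change against the earlier times 0.35 and 0.41, adjusted p = 7.25e-11 and 1.93e-10, edgeR). Tmem17, a gene of the ciliary transition zone, rose from 7.65 ± 0.47 to 9.92 ± 0.39 at imminent division (log2 change 0.39), and Lgalsl rose from 13.4 ± 0.6 to 17.2 ± 0.6 (0.32). Aifm2, which encodes a suppressor of ferroptosis, fell from 9.61 ± 0.56 to 6.96 ± 0.12 at imminent division (log2 change -0.41, adjusted p = 4.90e-11). Npffr1 fell with it (log2 change -0.36), as did the bin of Eif4ebp2 and Lrrc20 (-0.29). With all contacts of the bin summed these imminent division changes kept their calls at smaller sizes, 0.20 for Slc39a8, 0.16 for Tmem17, 0.13 for Lgalsl, -0.17 for Aifm2, -0.18 for Npffr1 and -0.15 for the Eif4ebp2 bin.

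At pre-S, Bdh2 rose from 12.3 ± 0.1 CPM at 3 h (SD, n = 2) to 16.6 ± 1.0 (log2 change 0.34), and the bin of Slc9b2 and Slc9b1 from 13.6 ± 0.2 to 17.7 ± 0.6 (0.32). Psap, which encodes the precursor of the lysosomal saposins, fell at pre-S (log2 change -0.22, adjusted p = 9.52e-06), and Itpkb, an inositol trisphosphate kinase gene of lymphocyte signalling, fell as well (-0.19, adjusted p = 5.21e-05). Aifm2 fell at pre-S too (-0.27, adjusted p = 1.30e-05), but with all contacts summed it was -0.015 and not called (adjusted p = 0.626). In that setting the other pre-S changes kept their calls, at 0.14 for Slc39a8, 0.18 for Bdh2, 0.20 for the Slc9b2 bin, -0.14 for Psap and -0.12 for Itpkb.

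The compartment component, which is positive in A and negative in B, was above 0 in all libraries at all 100 kb bins of Tmem63a, Ephx1, Ccdc121, Cdh23, Slc29a3 and Bank1, between 0.915 and 1.499. At the Otx1 bins it was below 0 in all libraries, and Wdpcp ran from a bin near 0 (0.06 ± 0.02 at 3 h, SD, n = 2) to one at -0.89 ± 0.02. Of the 18 bins of the members, 11 were called at imminent division against the mean of 3 h and 10 h, all higher, beside 36.0% of 23789 bins (17.5% higher, 18.5% lower). At pre-S 4 were called, all higher, beside 29.0% (14.1% higher, 14.9% lower). Between the 33 h groups 6 were called, all higher at imminent division, beside 14.3% (6.65% higher, 7.64% lower). A pair of these genes, Tmem63a and Ephx1, share a bin.

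These 6 were the bins of Wdpcp and Otx1. Otx1 moved from -0.71 ± 0.01 at 3 h (SD, n = 2) and -0.75 ± 0.03 at 10 h to -0.51 ± 0.02 at imminent division and was -0.72 ± 0.02 at pre-S in one bin, a difference between the 33 h groups of 0.21 ± 0.03 (SE; adjusted p = 0.00101, limma). In its other bin the difference was 0.12 ± 0.03 (adjusted p = 0.0178). The 4 Wdpcp bins differed by 0.16, 0.19, 0.16 and 0.20 (adjusted p from 0.00375 to 0.0202). Without the first imminent division library 3 of the 18 bins were called between the 33 h groups, and without the second 4. All of these bins stayed on the same side of 0.

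The 5 other bins called at imminent division were those of Ccdc121 (0.08 ± 0.03, SE; adjusted p = 0.0314), 2 bins of Cdh23 (0.09 each, adjusted p = 0.00792 and 0.00926) and 2 of Bank1 (0.08 and 0.10, adjusted p = 0.0162 and 0.0361). Ccdc121 was also called at pre-S (0.13, adjusted p = 0.00358), as were 2 Bank1 bins (0.08 and 0.11) and 1 Otx1 bin (0.09). On leaving out a library, the Ccdc121 call at imminent division was lost in 5 of 8 fits (adjusted p up to 0.181), those of Bank1 in 3 and 4, and those of Cdh23 in 1 each, without the first imminent division library. Without the second imminent division library the Ccdc121 and both Bank1 calls were lost. At pre-S the Bank1 calls were lost in 3 and 6 of 8 fits, Otx1 in 2 and Ccdc121 in 1. The bins of Tmem63a, Ephx1 and Slc29a3 were called in no contrast at 100 kb, but at 250 kb the bins that hold them were called higher at imminent division (0.05, 0.05 and 0.07) and likewise in pre-S cells (0.12, 0.08 and 0.06).

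The insulation score between the ends, the log2 of contacts across each bin border within 250 kb relative to the mean border, averaged over the borders between the ends, was compared between the 4 libraries at 33 h and the 4 earlier ones. Across Cdh23 to Slc29a3 it was 1.05 and 0.93 in the 3 h libraries, 1.19 and 1.14 in the 10 h libraries, 0.73 and 0.85 in the imminent division libraries and 0.81 and 0.87 in the pre-S libraries, with no overlap between early and late (difference -0.26, two-sided exact permutation p = 0.0286, adjusted over the 4 loci 0.0571). The smallest p this design can give is 0.0286, so no locus could pass after adjustment unless at least 3 of them reached it. At this locus, at Bank1 and at Wdpcp to Otx1 the score also holds the contact of the named pair, whose early values chose it. The test takes 3 h and 10 h as interchangeable, though the pairs were chosen for differing between them. The scores are therefore a description.

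Across the Bank1 pair the score was -0.21 and -0.36 in the 3 h libraries, -0.01 and -0.01 in the 10 h libraries, 0.05 and 0.07 in the imminent division libraries and 0.13 and 0.14 in the pre-S libraries (difference 0.25, exact permutation p = 0.0286, adjusted 0.0571). It too did not overlap between early and late. Across Wdpcp to Otx1 the score was 0.61 and 0.61 in the 3 h libraries, 0.32 and 0.32 in the 10 h libraries, 0.54 and 0.55 in the imminent division libraries and 0.41 and 0.37 in the pre-S libraries (difference 0.00, exact permutation p = 1). Its 33 h libraries lay between those at 3 h and 10 h. Across the chromosome 1 pair the difference was 0.05 (exact permutation p = 0.200, adjusted 0.267).

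**Figure D5:**
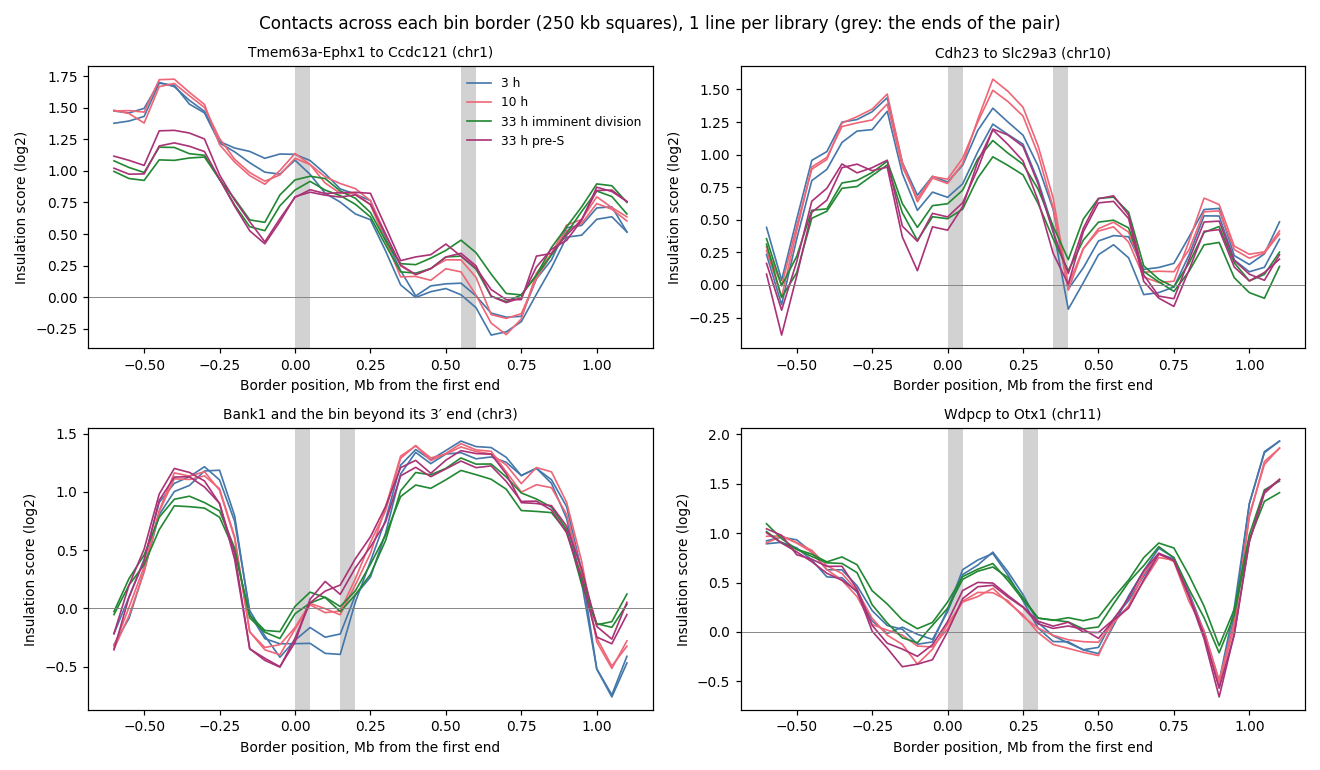
Insulation score (log2 contacts across each bin border within 250 kb, relative to the mean border) around the 4 pairs against border position in Mb from the first end, with 1 line per library and the ends in grey. Averaged over the borders between the ends, the Bank1 score is lowest at 3 h, and the Wdpcp to Otx1 score is 0.32 at 10 h against 0.61 at 3 h.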

How the data were processed

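The deposited matrices hold raw counts of read pairs per pair of 50 kb bins for each of the 8 libraries. By their methods, the authors used diffHic for alignment to mm10 (the build in the submitters' processing notes), marked duplicates and removed dangling ends and long fragments. The matrices carry no coordinates, so bins were rebuilt from MboI fragments of GRCm38, giving 53357 bins, the number in each matrix. Genes are from GENCODE M21. Of 48088 autosomal bins, 756 were left out for over 10% undetermined bases or for a coverage over 4 times, or under 1/4 of, the median.

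Bin pairs of the same autosome with a summed count of at least 10 and an abundance over 4-fold the interchromosomal background (1 Mb bin pairs, prior count 2) entered a test in edgeR 4.0.16 (R 4.3.3), in a one-way layout over all 8 libraries with loess offsets, fitted apart below 1.5 Mb, dispersions with a trend and the quasi-likelihood fit in robust mode. Promoter interactivity summed contacts above a distance curve plus 2 mean absolute residuals, with at least 200 counts per bin, and was tested with edgeR without a dispersion trend. The compartment component at 100 kb was the first principal component of the correlation matrix, tested with limma 3.58.1. P-values were adjusted over all features by Benjamini-Hochberg at an FDR of 5%. DESeq2 1.42.0 was an alternative. The fits were tested on simulated data.

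The named pair of a locus is the tested pair with the smallest p for 10 h versus 3 h that has an end over a member gene and lies in the window. Up to 3 further pairs and genes per window or contrast were named by smallest p. The members, gene lists and tests were chosen with earlier results of these data known. Without molecular identifiers, duplicated molecules may remain, and intervals cover counting error and replicate spread only. Same-numbered replicates did not deviate together (correlations within ±0.034), so numbers were not taken as pairs. The sex chromosomes were left out of the tests, and 0 columns went unused. One promoter result is not reported here.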

Additional observations from a re-analysis of the deposited data

Results flagged for a closer look

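The results here are differences between the 33 h groups, imminent division versus pre-S, that passed the test of the difference itself, as log2 changes unless stated. The Cdh23 to Slc29a3 pair differed by -0.51 (adjusted p = 0.0496, edgeR). This call was lost in most fits that left out a library and in 5 of 10 other settings, where the size fell to as little as -0.25.

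Window bin pairs were called in this contrast no more often than all bin pairs (15 of 4140, 0.362%, beside 0.361%). On chromosome 1, the bin pairs starting at 180399737 and 180749897 (Itpkb and Stum with Acbd3) differed by -0.67, those at 181000032 and 181050040 (Ephx1 with its neighbour) by 0.43, and those at 180949917 and 181600122 (the Tmem63a and Ephx1 end with Dnah14) by -1.02. On chromosome 3, the pairs at 136500184 and 136949931, at 135850211 and 135899235, and at 135199886 and 135399963 differed by 1.25, 0.44 and 0.99. On chromosome 11, those at 21349832 and 21499968, at 21300052 and 21649900, and at 21300052 and 21499968 differed by 0.70, 1.46 and 0.71. Each of these 9 calls was lost in 3 or 4 of the 8 fits that left out a library, among them those without the first and without the second pre-S library, and in 3 to 5 of up to 10 other settings. The pair at 135199886 ranged from 0.65 to 1.37 and the pair at 21300052 and 21649900 from 0.97 to 2.32 over the libraries left out. With interchromosomal coverage in the offsets, none of the 157 window calls of this contrast was higher at imminent division. The split over all bin pairs at that setting is not given beside it.

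Of the gene-start bins of the windows, 15 of 73 were called, beside 20.7% of all gene-start bins. Promoter interactivity differed by 0.20 for Cdh23, -0.12 for Slc29a3, 0.18 for Otx1, 0.22 for Tmem17 and 0.14 for Lgalsl. It differed by -0.29 for Bdh2, -0.22 for Cenpe and -0.18 for the bin of Slc9b2 and Slc9b1. None of these 8 kept its call when all cis interactions of the bin were summed. On leaving out a library, the calls of Otx1, Slc29a3, Lgalsl, the Slc9b2 and Slc9b1 bin, Tmem17 and Cdh23 were lost in 4, 5, 2, 2, 1 and 1 of 8 fits. The compartment component of the Wdpcp bins differed by 0.16, 0.19, 0.16 and 0.20, and that of the Otx1 bins by 0.21 and 0.12. Strain and sort gate differ together with these groups.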

How the results depend on the processing

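With 2 libraries per group, many calls depended on single libraries and on the scaling. Of 2904 recomputed values, 2374 kept their direction and side of the threshold or, for counts, stayed within 1.5 times the count of the fit as reported, 229 counts moved further, 219 values lost and 28 gained a call, and 54 changed sign. Values uncalled in both fits are among those that kept their side. The tally therefore does not give the share of calls that held. Unless stated, the cause was not tested.

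The Cdh23 to Slc29a3 fall at imminent division kept its call in every setting except the DESeq2 Wald test (-0.63). Its size ran from -0.82 with TMM factors to -0.32 with 100 kb bins, and over the single libraries left out it ranged from -0.71 to -0.55. Its difference between imminent division and pre-S lost the call with DESeq2 (-0.51), the 2-fold abundance filter (-0.51), 100 kb bins (-0.25), thinning to the shallowest library (-0.55) and the replicate block (-0.50), and ranged from -0.57 to -0.45 over the single libraries left out. At pre-S this pair changed sign, uncalled, with interchromosomal coverage in the offsets (0.020) and offsets per distance class (0.017).

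With interchromosomal coverage in the offsets, the chromosome 1 pair gained a call at imminent division (-0.78) and between the 33 h groups (-0.99), Bank1 turned to -0.38 at imminent division, and its difference between the 33 h groups was called (-0.59). Wdpcp to Otx1 gained a call at imminent division with offsets per distance class (0.45). With 100 kb bins the chromosome 1 pair was called at imminent division (-0.49) and between the 33 h groups (-0.82), Bank1 at imminent division (0.35) and pre-S (0.52), and Wdpcp to Otx1 at pre-S turned to -0.039, uncalled.

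Of the window bin pairs, 405 were called at imminent division in the loess fit, 833 with coverage in the offsets, 3 with DESeq2 and 96 after thinning. At pre-S 122 were called, against 224 with TMM factors, 222 with size factors, 0 with DESeq2 (340 at an unadjusted p under 0.05), 75 with the 2-fold filter and 47 after thinning. Between the 33 h groups 15 were called, against 157 with coverage, 8 with offsets per distance class, 0 with DESeq2 (95 at an unadjusted p under 0.05), 8 with the 2-fold filter, 28 with 100 kb bins and 0 after thinning (397 at an unadjusted p under 0.05). Thinning leaves fewer read pairs, and 100 kb bins form other bin pairs, so such counts do not share the base of the fit as reported. Shares over all bin pairs at each setting are not given beside these counts.

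Leaving out 1 library at a time gave 167 to 388 window calls at imminent division (167 without the second and 172 without the first imminent division library, 221 without the second 10 h and 262 without the second 3 h library). It gave 8 to 128 at pre-S (8 and 34 without the first and second pre-S library, 71 and 66 without the first and second 10 h library), and 1 to 19 between the 33 h groups (1 and 2 without the first and second pre-S library, 3 without the second imminent division library). Member promoters called ranged from 1 to 4 at imminent division (1 without its first library, 2 without the second 10 h library), 2 to 5 at pre-S (2 without its first library) and 1 to 3 between them (1 without either imminent division library or the first pre-S library). Member compartment bins called ranged from 4 to 11 (4 without the first imminent division library), 0 to 6 (0 without the second pre-S library, 1 and 2 without the second and first 10 h library) and 3 to 6 (3 without the first imminent division library).

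Replicate numbers did not pair the libraries. With the replicate block, 373, 99 and 11 window bin pairs were called at imminent division, at pre-S and for the difference of the 33 h groups.

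With all cis interactions, 7 member promoters were called at imminent division and 7 at pre-S. Between the 33 h groups 0 were called (0 at an unadjusted p under 0.05). Over all gene-start bins, 7233, 7522 and 1906 were then called, against 7318, 5318 and 2573 in the fit as reported. With DESeq2, 2, 4 and 0 members were called (3 between the 33 h groups at an unadjusted p under 0.05). Over all gene-start bins the DESeq2 calls were 5446, 3418 and 747. Single promoters changed sign at Slc29a3 at pre-S (-0.053 with TMM, -0.11 and called with all cis interactions), and with all cis interactions at Ephx1 at imminent division (-0.047) and, for imminent division against pre-S, at Bank1 (0.046), Wdpcp (0.029) and the bin of Slc9b2 and Slc9b1 (0.00024). The last had been called.

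The compartment bins called at pre-S were 7 with 250 kb bins. Compartment values uncalled at 100 kb changed sign with 250 kb bins at Tmem63a (0.054), Ephx1 (0.048) and Cdh23 (0.022) at imminent division, at Ephx1 (0.078), Cdh23 (0.024) and Slc29a3 (0.062) at pre-S, and at Cdh23 (-0.0020) and Bank1 (0.0022 and -0.0071) for imminent division against pre-S. Of these, Tmem63a and Ephx1 at imminent division and Ephx1 and Slc29a3 at pre-S were called at 250 kb. With quantile normalization uncalled values did so at Slc29a3 at imminent division (-0.0086), Wdpcp (-0.0037) and Otx1 (-0.0051) at pre-S, and Ephx1 for imminent division against pre-S (0.0038).

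Leaving out single libraries also turned the sign of values near 0, none of them called in the fit of all libraries. Promoter interactivity in pre-S ranged from -0.013 to 0.017 at Ephx1, -0.12 to 0.070 at Ccdc121 and -0.025 to 0.035 at Slc29a3. Promoter interactivity for imminent division against pre-S ranged from -0.14 to 0.057 at Ccdc121 and -0.094 to 0.028 at Wdpcp. The compartment component in imminent division ranged from -0.023 to 0.016 at Tmem63a (bin from 180899960), -0.025 to 0.019 at Ephx1 (bin from 181000032) and -0.0049 to 0.024 at Slc29a3 (bin from 60699664). The compartment component in pre-S ranged from -0.023 to 0.021 at Ephx1 (bin from 181000032), -0.033 to 0.0035 at Cdh23 (bin from 60299925), -0.072 to 0.0021 at Wdpcp (bin from 21599861), -0.048 to 0.026 at Wdpcp (bin from 21699960), -0.0046 to 0.029 at Wdpcp (bin from 21799817) and -0.0020 to 0.022 at Otx1 (bin from 21900307). The compartment component for imminent division against pre-S ranged from -0.016 to 0.011 at Ephx1 (bin from 181000032) and -0.032 to 0.0067 at Cdh23 (bin from 60299925). The insulation difference between the Wdpcp and Otx1 ends ranged from -0.045 to 0.054.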
